A study of Mus musculus with 32 samples.

Results

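The genes described here are 9 genes of the complement system in mouse kidney, chosen by name from a table of 54532 genes: C3, C4b, Cfb, Cfi, C1qa, C1qb, C1qc, C3ar1 and Cd55. All 9 were measured in all 32 libraries, and all 9 passed the filter on low counts in every comparison. The study followed the kidney injury caused by cisplatin, a platinum drug that damages the tubules, and asked how it develops over days and whether it differs between the sexes. Whole kidney RNA was sequenced from wild-type C57BL/6 mice of 6 to 8 weeks, 1 library per mouse, in 8 groups of 4. Each sex was sampled before treatment (Day 0) and 2, 3 and 5 days after a single injection of 20 mg/kg cisplatin (Day 2, Day 3, Day 5). The study calls the Day 0 mice healthy, although the labels list cisplatin as the treatment of the Day 0 females and none for the Day 0 males. The study calls the 4 mice of a group biological replicates.

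Complement is a cascade of plasma and cell surface proteins that marks damaged cells and microbes. It starts by the classical route, in which C1q binds its target and C4 and C2 are cut, by the lectin route, or by the alternative route, in which factor B joins C3b. All routes meet at C3, whose fragments coat surfaces, call in leukocytes and lead to the membrane attack complex. The liver makes most plasma C3, C4, factor B and factor I, while tubule cells of the kidney also make C3, and tissue macrophages are the main source of C1q. Regulators such as factor I, CD55 and CD59 hold the cascade in check on the body's own cells.

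Per length of transcript, C3 was the most abundant of the 9 genes, with a median of 28.7 FPKM (fragments scaled by gene length and library size, the authors' unit) over the 32 libraries. C1qa and C1qb followed with medians of 18.9 and 17.6 FPKM, and C1qc with 7.06 FPKM. C4b had a median of 3.56 FPKM, Cfi of 3.01, Cd55 of 3.00 and Cfb of 2.30. C3ar1 was the lowest at 0.391 FPKM and rested on as few as 2 counts in a library. Levels of 1 gene across mice are given below in CPM (counts scaled to library size, with TMM factors), and differences as log2 fold changes with the standard error (SE) of the fit. "Passed" means an adjusted p under 0.05 (Benjamini-Hochberg, over all genes tested) by the quasi-likelihood test of edgeR, with each fit on the groups compared.

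Total counts per library ranged from 16502107 to 35961325. Several libraries stood apart, and values without them are given where a result rests on them. Female Day 0 mouse 2 held liver transcripts, with Alb (albumin) at 6968 CPM and 10 hepatocyte markers at a summed 12639 CPM, against at most 453 CPM in any other library. Male Day 0 mouse 3 and female Day 0 mouse 3 detected 17985 and 16265 genes, and 83 and 114 genes with a median over 5 CPM were at 0 counts there, against at most 4 such genes elsewhere. These 3 libraries are called the 3 atypical Day 0 libraries below. At Day 5, the library labelled male mouse 1 held 4153 counts of Xist, the transcript of the inactive X chromosome, against at most 260 in the other 15 male libraries, which goes against its label. Genes of the mitochondrial genome took 78.9% to 79.8% of counts in male Day 5 mice 2 to 4 and 77.9% in female Day 5 mouse 2, against at most 42.5% elsewhere.

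Promoter sequence was at hand for 5 of the 9 genes (RefSeq, GRCm38.p6, 250 bases before to 50 after the start site), all on the minus strand: Cd55, C1qb, C1qc, C3ar1 and C3. Stretches with a match are shown to set C1qc, which passed in males as described below, beside its neighbour C1qb and beside C3 and Cd55. Letters for 6 motifs were searched on both strands: NF-kappaB (GGGA, any 4 bases, then CC), STAT (TTCNNNGAA), C/EBP (TTNNGNAAT), PU.1 (GAGGAAGT), a paired interferon element (GAAA, any 2 bases, then GAAA) and TATAAA. The lines below are 30 bases each, 5′ to 3′ along the gene, with the matched letters in capitals.
C3, C/EBP letters, chr17:57228162-57228191: ggaaactatgTTGCGAAATtttgggcagtc
C3, NF-kappaB letters on the other strand, chr17:57228150-57228179: gcgaaattttGGGCAGTCCCtggtgcagga
C1qc, PU.1 letters on the other strand, chr4:136893091-136893120: ggacggcagacACTTCCTCattttggcaca
C1qc, NF-kappaB letters on the other strand, chr4:136892935-136892964: gtgggggaggGGGCTCTCCCtgctctgggc
C1qb, NF-kappaB letters, chr4:136886372-136886401: cagccatctgGGGATAGTCCctaagaacag
Cd55, NF-kappaB letters, chr1:130462786-130462815: tcattaatgaGGGAACGCCCtcttgcacgc

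The C/EBP letters of C3 began 45 bases before the start site, and 11.5% of 32851 promoters held such a match. The NF-kappaB letters that follow them began 33 bases before the start site, and 20.7% of all promoters held that motif, so its presence in 4 of the 5 genes stands against a common background. C3 also held these letters at 197 and 10 bases before the start. The match in C1qb also reads as one on the opposite strand, shifted by 1 base. The PU.1 letters of C1qc began 195 bases before its RefSeq start and occur in 3.20% of all promoters. The C1qc gene as annotated with the counts reaches further, to 136893065. Its NF-kappaB stretch therefore lies inside the annotated gene. C3 held TATAAA from base 14 after its start and C3ar1 from 235 bases before. No window of the 5 held the STAT or interferon letters, which were found in 8.30% and 3.44% of all promoters. A match is a description of the sequence and not a binding site.

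**Figure D1:**
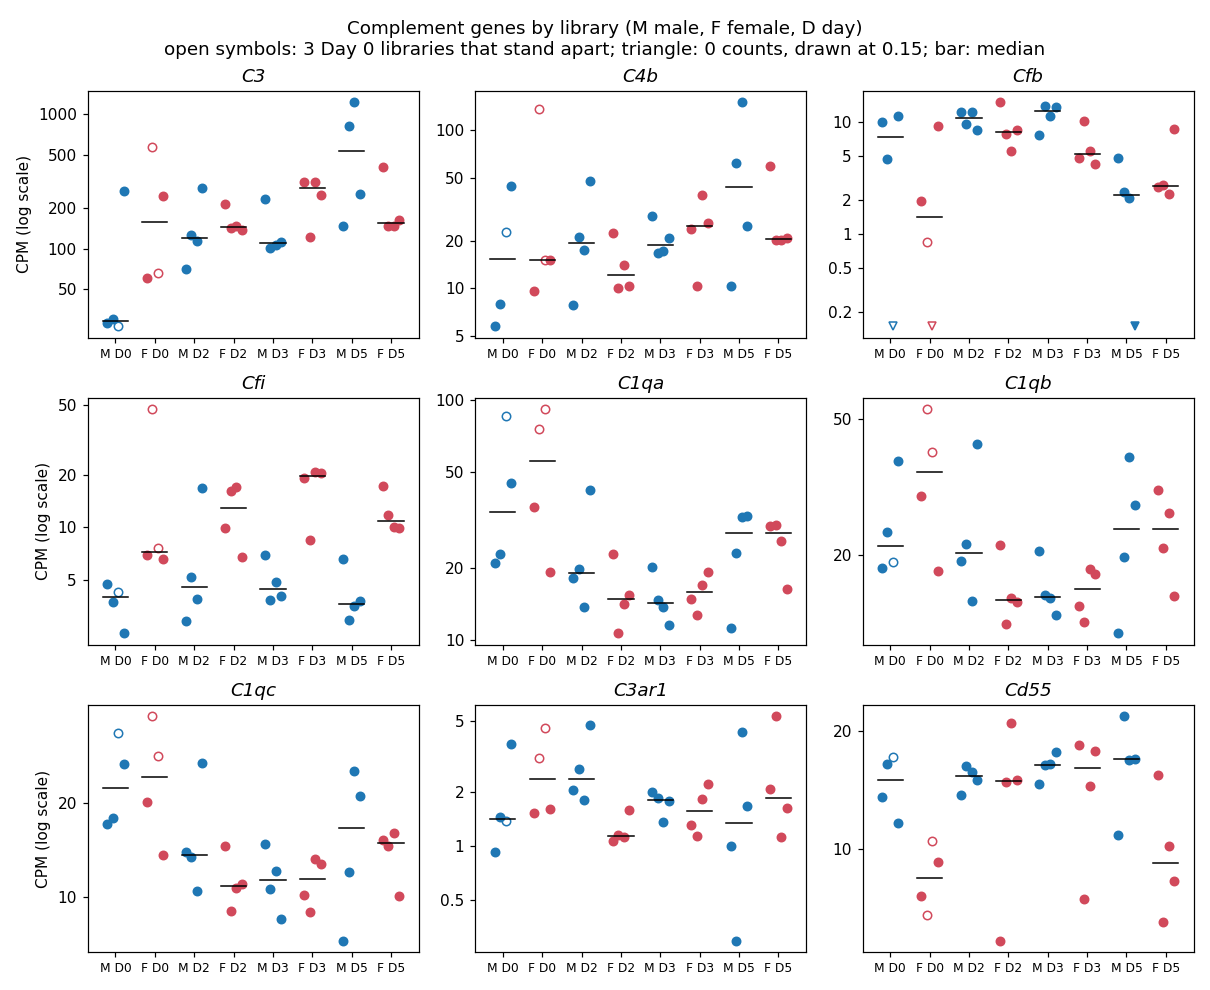
Level of the 9 complement genes in each of 32 kidney libraries, in CPM on a log scale, with 4 mice per sex and day (blue male, red female) and the median of each group as a bar. Open symbols mark the 3 atypical Day 0 libraries and triangles 0 counts; Cfi lies higher in females than in males at Day 3 with no overlap.

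Complement factor I (Cfi, chromosome 3, 129835884 to 129875332, plus strand) is the protease that cuts C3b and C4b and so ends their activity. It was the member with the clearest difference between the sexes. At Day 3 the males had 6.92, 3.82, 4.86 and 4.04 CPM, and the females 19.1, 8.46, 20.8 and 20.3 CPM. Every female lay above every male. Males against females gave −1.83 on the log2 scale (SE 0.31), or 3.56-fold higher in females, with an adjusted p of 0.00644 in edgeR. It was the only one of the 9 members that passed between the sexes at Day 3, where 21.3% of 16673 genes passed and 10.7% were lower in males. The difference passed in all 8 fits that left out 1 mouse, with log2 fold changes from −2.06 to −1.72, and under 7 of 8 other settings. In 1 fit over all 8 groups it did not pass, at −1.80 and an adjusted p of 0.119.

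The same order of the sexes was seen on other days without passing. At Day 0 the males had 4.72, 3.75, 4.27 and 2.47 CPM and the females 6.91, 47.1, 7.59 and 6.58 CPM, again with no overlap. The value of 47.1 CPM belongs to the library with liver transcripts. With it the log2 fold change was −2.17 (SE 0.69, adjusted p = 0.343), and without that library −0.92 (SE 0.32, adjusted p = 0.713). With all 3 atypical libraries left out it was −0.91 (SE 0.35, adjusted p = 0.767). At Day 5 the males had 6.54, 2.97, 3.54 and 3.79 CPM and the females 17.1, 11.8, 10.04 and 9.90 CPM, once more apart (−1.46, SE 0.31, adjusted p = 0.0821). Without the library labelled male Day 5 mouse 1, the highest of the males, the difference passed (−1.71, SE 0.31, adjusted p = 0.00336), as did 17% of all genes. At Day 2 the groups overlapped, because male mouse 4 had 16.8 CPM against 2.92, 5.21 and 3.89 CPM in the other males, and the females had 9.89, 16.002, 17.0 and 6.75 CPM. The difference at Day 2 was −0.82 (SE 0.51, adjusted p = 0.494), and without male mouse 4 it passed at −1.64 (SE 0.34, adjusted p = 0.0314), as did 3.35% of all genes. The adjusted p here are those of edgeR.

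Against Day 0, Cfi did not pass on any day in either sex. In males its log2 fold changes were 0.93 (SE 0.53) at Day 2, 0.37 (SE 0.27) at Day 3 and 0.22 (SE 0.36) at Day 5. In females they were −0.46 (SE 0.66), −0.01 (SE 0.67) and −0.49 (SE 0.63). Without the Day 0 library with liver transcripts alone the female values were 0.85 (SE 0.36), 1.27 (SE 0.33) and 0.80 (SE 0.30), with adjusted p of 0.272, 0.137 and 0.461 in edgeR. Without both atypical female libraries they were 0.88 (SE 0.38), 1.34 (SE 0.37) and 0.85 (SE 0.33), with adjusted p of 0.344, 0.173 and 0.710 in edgeR. The sex by day term for Cfi did not pass on any day, at 1.37 (SE 0.92) for Day 2, 0.35 (SE 0.78) for Day 3 and 0.68 (SE 0.76) for Day 5, where a positive value means a larger rise in males.

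Cfi was read beside markers of injured tubules in each library. The summed CPM of 5 such markers (Havcr1, Lcn2, Krt20, Spp1 and Vcam1) was 487 to 1293 in Day 3 males and 1161 to 5202 in Day 3 females. The sexes were apart in this sum before treatment as well, at 441 to 634 in Day 0 males and 1131 to 1666 in Day 0 females. Of the 5 markers, 3 (Havcr1, Krt20 and Spp1) passed at Day 3, lower in males as were 10.7% of all genes, and the median log2 fold change of the 5 was −1.81. Havcr1 (kidney injury molecule 1), which is shed by damaged proximal tubule, was at 1.44 to 3.33 CPM in Day 3 males against 3.84 to 72.8 CPM in the females (log2 fold change −3.60, SE 0.86, adjusted p = 0.0248 in edgeR). The Day 3 female with the lowest Cfi, mouse 2 at 8.46 CPM, also had the lowest Havcr1, 3.84 CPM against 17.0 to 72.8 CPM in the other 3. The Day 2 male with the highest Cfi, mouse 4 at 16.8 CPM, had Havcr1 at 63.5 CPM against 1.29 to 4.01 CPM in the other Day 2 males. Other mice went the other way. Male Day 5 mouse 3 had the highest marker sum of the males, 1942 CPM, and Cfi at only 3.54 CPM. Over the females the Pearson r of log2 Cfi with the log2 summed markers was 0.46 (16 libraries), and 0.80 (14 libraries) without the atypical ones; over the males it was 0.45 (16 libraries, and 15 without the atypical one). These libraries share their days and sexes, so r is given as a description. The part of tubule injury in the sex difference was not tested.

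**Figure D2:**
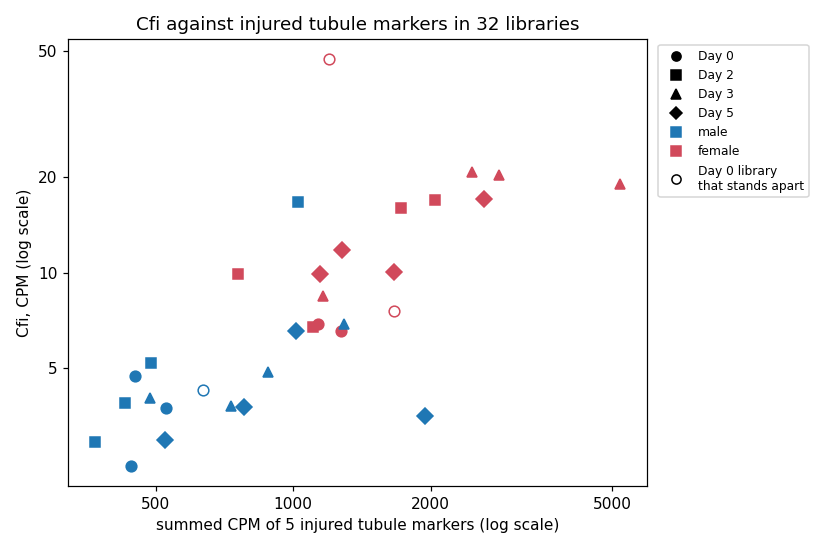
Cfi in CPM against the summed CPM of 5 injured tubule markers in 32 libraries, both on log scales, with blue for males, red for females, a symbol for each day and open symbols for the 3 atypical Day 0 libraries. The open symbol at 47.1 CPM is the library with liver transcripts, which lies far above the other libraries of like marker level; the 4 Day 3 females (red triangles) lie between 8.46 and 20.8 CPM.

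C1qa, C1qb and C1qc encode the 3 chains of C1q, which starts the classical route. They lie next to each other on chromosome 4, minus strand, at 136895917 to 136898803, 136880129 to 136886187 and 136889804 to 136893065. At Day 3 against Day 0, C1qa fell in both sexes and C1qc in males, while C1qb passed in neither sex, and in females none passed without the atypical Day 0 libraries. In males C1qa had 20.9, 22.8, 85.7 and 45.3 CPM at Day 0 and 20.1, 14.7, 13.7 and 11.6 CPM at Day 3. The groups did not overlap, and the highest value was that of the atypical mouse 3. C1qa fell by 1.55 on the log2 scale (SE 0.45, adjusted p = 0.0390 in edgeR), and without mouse 3 by 0.98 (SE 0.30, adjusted p = 0.0372), beside 38.6% of all genes.

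C1qc in males had 17.0, 17.8, 33.3 and 26.6 CPM at Day 0 and 14.7, 10.6, 12.1 and 8.51 CPM at Day 3, with no overlap. It fell by 1.05 (SE 0.26, adjusted p = 0.0261 in edgeR), and without mouse 3 by 0.83 (SE 0.22, adjusted p = 0.0173), beside 38.6% of all genes. C1qb had 18.3 to 37.9 CPM at Day 0 and 13.4 to 20.6 CPM at Day 3, and its change of −0.62 (SE 0.25, adjusted p = 0.103) did not pass. These 2 were the only members that passed in males at Day 3, both lower, where 24.5% of 15908 genes passed and 13.1% were lower. Among the fits that left out 1 mouse, C1qa passed in 3 of 8 and C1qc in 4 of 8. Neither passed without any 1 of the Day 3 males, with adjusted p of 0.0762 to 0.107 for C1qa and 0.0506 to 0.0772 for C1qc. Only C1qc passed without Day 0 mouse 4, where C1qa had an adjusted p of 0.0510.

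In females C1qa had 35.95, 75.8, 91.6 and 19.3 CPM at Day 0 and 14.9, 12.7, 17.0 and 19.2 CPM at Day 3. The groups did not overlap, but the lowest Day 0 value and the highest Day 3 value nearly met. C1qa fell by 1.81 (SE 0.44, adjusted p = 0.0489 in edgeR). C1qb (−1.19, SE 0.31, adjusted p = 0.0523) and C1qc (−1.15, SE 0.31, adjusted p = 0.0530) stood just outside the threshold, and C1qc did not overlap between the days either. C1qa was thus the only member that passed in females at Day 3, where 5.54% of 17065 genes passed and 4.28% were lower. The call was lost in 7 of the 8 fits that left out 1 mouse, and adjusted p ranged from 0.00195 to 0.168. Without Day 0 mouse 4, the lowest of its group, all 3 C1q genes passed, at −2.10 for C1qa, −1.40 for C1qb and −1.35 for C1qc, in a fit where 39.1% of all genes passed. Without the atypical Day 0 mice 2 and 3, which held the highest C1q values of the group, none of the 3 passed, at −0.80 (SE 0.27, adjusted p = 0.199), −0.62 (SE 0.25, adjusted p = 0.241) and −0.59 (SE 0.24, adjusted p = 0.244), and 0 of 18098 genes passed in that fit.

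At Day 2 and Day 5 no C1q gene passed in either sex. At Day 2 the females had 10.7 to 22.8 CPM of C1qa, and the changes were −1.82 (SE 0.45, adjusted p = 0.0546) for C1qa, −1.15 (SE 0.33, adjusted p = 0.0714) for C1qb and −1.13 (SE 0.31, adjusted p = 0.0687) for C1qc in edgeR. Without Day 0 mouse 4 all 3 passed at Day 2, with adjusted p of 0.00329, 0.00516 and 0.00570, as did Cfb (3.24, adjusted p = 0.0265) and C3ar1 (−1.30, adjusted p = 0.0431), beside 28.3% of all genes. Without both atypical libraries the C1q changes at Day 2 were −0.82, −0.60 and −0.58. Male Day 2 mouse 4, the mouse with high Cfi, also had high C1qa, 42.4 CPM against 13.7 to 19.9 CPM. Between the sexes at Day 3, C1qa differed by −0.11 (SE 0.18), C1qb by 0.01 (SE 0.15) and C1qc by −0.00 (SE 0.18) on the log2 scale. These differences were smaller than their SE. At Day 5 in females, C1qa (−1.40, adjusted p = 0.0230) and C1qc (−1.03, adjusted p = 0.0309) passed once Day 0 mouse 4 was left out, beside 12.6% of all genes. The male mean of C1qa was 15.04 ± 3.62 CPM at Day 3 and 25.0 ± 10.2 CPM at Day 5, and the female mean 15.95 ± 2.78 and 25.6 ± 6.45 CPM (SD, n = 4); Day 5 was not tested against Day 3.

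The 3 chains kept a close ratio to each other in most libraries. The ratio of C1qa to C1qb counts was 0.838 to 1.43 in 30 libraries. It was 4.48 in male Day 0 mouse 3 and 2.28 in female Day 0 mouse 3, the libraries with many genes at 0. The ratio of C1qc to C1qb was 0.488 to 0.929 in the 30 libraries. Over the 29 libraries without the 3 atypical ones, the Pearson r of log2 CPM was 0.96 between C1qa and C1qb, 0.93 between C1qa and C1qc and 0.95 between C1qb and C1qc.

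C1q was compared with 10 macrophage markers, since macrophages are its known source in tissue. The summed CPM of these markers was 124 to 200 in Day 0 males and 98.3 to 135 in Day 3 males, and 120 to 148 and 111 to 126 in the same groups of females. Of the 10 markers, 2 fell in males at Day 3 (Csf1r, the receptor that keeps macrophages alive, by 0.57, and Ms4a7 by 2.33) and none rose. Of all genes, 13.1% fell there. In females Lyz2 fell by 0.89 and none rose, where 4.28% of all genes fell. Adgre1 (F4/80) and Cd68 passed in neither sex at Day 3. Per summed CPM of macrophage markers, the summed C1q was 0.438 to 1.11 in Day 0 males and 0.302 to 0.413 in Day 3 males, and 0.426 to 1.20 and 0.274 to 0.445 in females. The 3 atypical Day 0 libraries held the highest ratios, 1.11 to 1.20. Without them the Day 0 ratios were 0.438 to 0.548 in males and 0.426 to 0.619 in females. The females overlapped between the days with or without them. Over 16 males the r with the markers was 0.59 for C1qa, 0.88 for C1qb and 0.65 for C1qc. Over 16 females the same values were 0.69, 0.74 and 0.67. Without the atypical libraries they were 0.87, 0.89 and 0.80 in 15 males and 0.68, 0.68 and 0.61 in 14 females. In whole tissue, fewer cells of a type and less RNA per cell cannot be told apart.

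**Figure D3:**
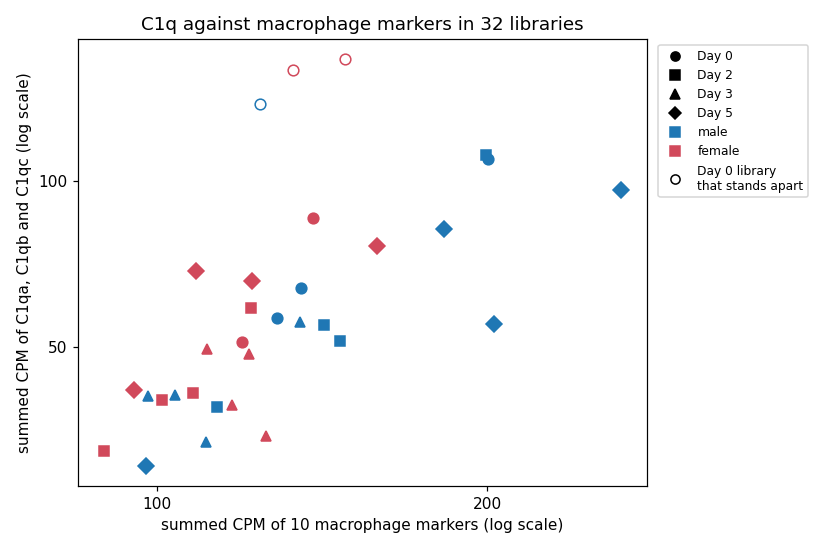
Summed CPM of C1qa, C1qb and C1qc against the summed CPM of 10 macrophage markers in 32 libraries, both on log scales, with blue for males, red for females and a symbol for each day. The 3 atypical Day 0 libraries (open) lie above the others of like marker level, at 138 to 167 CPM of C1q, and the Day 3 libraries (triangles) lie at 33.5 to 55.4 CPM.

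C3 (chromosome 17, 57203970 to 57228136, minus strand) is the hub of the cascade. In Day 0 males it had 28.1, 30.04, 26.6 and 269 CPM, so that mouse 4 stood far above the other 3. The Day 2 males had 70.8, 128, 114 and 281 CPM, the Day 3 males 233, 102, 107 and 113 CPM and the Day 5 males 147, 817, 1225 and 255 CPM. Every treated male lay above the 3 low Day 0 males, while mouse 4 of Day 0 lay above every Day 3 male and within the ranges of Day 2 and Day 5. Against all 4 Day 0 males, C3 did not pass on any day, at 0.75 (SE 0.81, adjusted p = 0.560), 0.64 (SE 0.79, adjusted p = 0.563) and 2.88 (SE 0.96, adjusted p = 0.0629) in edgeR. Without Day 0 mouse 4 it passed on every day and was higher, at 2.41 (SE 0.44, adjusted p = 0.0246), 2.30 (SE 0.33, adjusted p = 0.00477) and 4.49 (SE 0.79, adjusted p = 0.0109), beside 14%, 34.7% and 21.7% of all genes. Mouse 4 is singled out by its own C3 value, so the calls without it cannot decide whether C3 rose. At Day 5 it also passed without the library labelled male Day 5 mouse 1 (3.19, SE 0.95, adjusted p = 0.0375), as did 26% of all genes.

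Male Day 0 mouse 4 was not one of the 3 atypical libraries, but its markers differed from those of its group. Its 6 adipocyte markers summed to 856 CPM against 134 to 136 CPM in the other Day 0 males, and its 5 fibroblast markers to 626 CPM against 138 to 172 CPM. Its proximal tubule markers summed to 19724 CPM against 35179 to 87339 CPM and its macrophage markers to 200.2 CPM against 124 to 135 CPM. Genes of the mitochondrial genome took 24.0% of its counts against 6.46% to 10.7% in the other Day 0 males. The Day 5 males had 245 to 1000 CPM of adipocyte markers and 239 to 1304 CPM of fibroblast markers, and the mitochondrial shares given above. Their monocyte and neutrophil markers summed to 12.6 to 216 CPM against 4.19 to 6.73 CPM at Day 0, and of the 8 such markers 4 were tested and 2 passed, both higher, where 19.2% of all genes passed in either direction; the median log2 fold change of the 4 was 3.89. The Day 2 and Day 3 males had 77 to 190 CPM of adipocyte markers, and 205 to 749 CPM of fibroblast markers. Over the 16 males, log2 C3 had an r of 0.89 with fibroblast markers, 0.66 with adipocyte markers and −0.91 with proximal tubule markers. Over the 16 females the same values were 0.28, 0.32 and −0.35. Without the atypical libraries they were 0.87, 0.67 and −0.89 over 15 males and 0.35, 0.28 and −0.60 over 14 females. Female Day 0 mouse 4, the second highest of its group in C3, had the highest adipocyte (507 CPM) and fibroblast (371 CPM) sums of the Day 0 females. The part of these markers and of the mitochondrial share in the C3 values was not tested.

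In females C3 had 61.2, 571, 65.9 and 248 CPM at Day 0, with the highest value in the library with liver transcripts. At Day 2 it had 214, 142, 148 and 138 CPM, at Day 3 312, 123, 315 and 250 CPM and at Day 5 403, 147, 148 and 165 CPM. All groups overlapped. The changes from Day 0 were −0.56 (SE 0.63), 0.06 (SE 0.68) and −0.14 (SE 0.69), with adjusted p of 0.595, 0.957 and 0.932 in edgeR. Without the 3 atypical libraries they were 0.06 (SE 0.45), 0.69 (SE 0.57) and 0.47 (SE 0.57), and none passed. Between the sexes C3 did not pass on any day, at −1.44 (SE 0.98), −0.14 (SE 0.35), −0.88 (SE 0.38) and 1.57 (SE 0.65) from Day 0 to Day 5. At Day 3 it passed, lower in males, without male mouse 1 (−1.25, adjusted p = 0.0357) or without female mouse 2 (−1.10, adjusted p = 0.0446), beside 17.4% and 34.6% of all genes. The sex by day term at Day 5 was 2.97 (SE 1.27, adjusted p = 0.280), and 2.09 (SE 1.33, adjusted p = 0.526) without the 3 libraries.

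C4b (chromosome 17, 34728380 to 34743882, minus strand) encodes C4, which C1s and the lectin route proteases cut on the way to C3. Its values carry 1 uncertainty: 16.5% of the 100-base windows of its transcript also occur in the paralog C4a, which had 6 to 163 counts per library, so some reads could be split between the copies. C4b was highest in the library with liver transcripts at 136 CPM, against 9.60, 15.1 and 15.04 CPM in the other Day 0 females, and in male Day 5 mouse 3 at 150 CPM. The Day 5 males had 10.4, 62.4, 150 and 24.8 CPM against 5.75, 7.95, 22.9 and 44.6 CPM at Day 0 (1.68, SE 0.85, adjusted p = 0.181 in edgeR). With 1 mouse left out in turn this change ranged from 0.74 to 2.38 and passed in 0 of 8 fits. It passed under 1 of 9 other settings. No comparison of C4b passed in the main fits. C4b followed C3 across libraries, with an r of 0.81 over 32 libraries and 0.89 over 29. Between Day 0 males and Day 2 males it differed by 0.22 (SE 0.69), and to Day 3 males by 0.02 (SE 0.58). In females C4b was lower than at Day 0, by −1.63 (SE 0.83), −0.85 (SE 0.83) and −0.56 (SE 0.87) from Day 2 to Day 5. These female changes include the Day 0 library with liver transcripts. Under some other settings or with mice left out they turned to higher, up to 0.201, 0.998 and 1.27. The direction of C4b in females is therefore not settled.

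Factor B (Cfb, chromosome 17, 34856374 to 34862518, minus strand) forms the C3 convertase of the alternative route. The annotation holds a second gene over it, Gm20547, which shares 81.0% of the 100-base windows of the Cfb transcript and had 0 counts in every library; how reads in the overlap were counted is not given in the sources used here, so the level of Cfb may be understated. Cfb had 0 counts in male Day 0 mouse 3, female Day 0 mouse 3 and male Day 5 mouse 4, where 3 counts would be the limit of what a count of 0 allows. The other Day 0 males had 10.1, 4.70 and 11.4 CPM and the Day 3 males 7.75, 14.0, 11.5 and 13.7 CPM. The Day 3 females had 4.78, 10.2, 5.53 and 4.19 CPM. At Day 3 males were higher than females by 0.90 (SE 0.30, adjusted p = 0.0663 in edgeR), which did not pass, and the groups overlapped through female mouse 2. Without that mouse the difference passed at 1.25 (adjusted p = 0.00158), and without male mouse 1 at 1.05 (adjusted p = 0.0451), beside 34.6% and 17.4% of all genes. Female mouse 2 was also the Day 3 female with the lowest Cfi and Havcr1.

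In Day 5 males Cfb had 4.81, 2.38 and 2.09 CPM in the 3 libraries with counts, resting on 13 to 86 counts. Against Day 0, Cfb did not pass in any group. From Day 2 to Day 5 its changes were 0.73, 0.86 and −1.37 in males and 1.58, 0.99 and 0.42 in females. The SE of Cfb was 0.92 to 1.23 in males and 1.03 to 1.10 in females on the log2 scale, the widest of the members, with 1 Day 0 library of each sex at 0. Without the 3 atypical libraries the changes were 0.29 (SE 0.30), 0.43 (SE 0.32) and −1.77 (SE 0.79) in males and 0.70 (SE 0.53), 0.12 (SE 0.60) and −0.47 (SE 0.67) in females, from Day 2 to Day 5, and none passed.

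Cd55 (decay accelerating factor, chromosome 1, 130439027 to 130462744, minus strand) takes apart C3 convertases on the cell surface. In males its group means were 14.7 ± 2.56, 15.2 ± 1.11, 16.3 ± 1.24 and 16.6 ± 4.50 CPM (SD, n = 4) from Day 0 to Day 5. The Day 0 females had 7.59, 6.79, 10.5 and 9.27 CPM, all below the Day 0 males at 13.6, 16.5, 17.1 and 11.7 CPM. This difference of 0.77 (SE 0.24) did not pass, with an adjusted p of 0.312 in edgeR. The Day 2 females had 5.82, 14.8, 21.0 and 14.97 CPM and the Day 3 females 18.5, 7.43, 14.5 and 17.9 CPM, so that 3 of 4 lay above every Day 0 female. The changes were 0.73 (SE 0.35, adjusted p = 0.219) and 0.76 (SE 0.30, adjusted p = 0.126). Cd55 shares 5.504% of its 100-base windows with Cd55b, which had 0 counts in every library.

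C3ar1 (chromosome 6, 122847138 to 122856161, minus strand) encodes the receptor of the C3a fragment on myeloid cells. The Day 2 males had 2.05, 2.68, 1.81 and 4.77 CPM and the Day 2 females 1.07, 1.15, 1.13 and 1.59 CPM. Every male lay above every female, yet the difference of 1.17 (SE 0.32) had an adjusted p of 0.109 in edgeR, and no member passed between the sexes at Day 2, where 1.47% of 16608 genes passed. Of the 10 macrophage markers 1 passed between the sexes at Day 2, Mrc1, higher in males by 1.18 (adjusted p = 0.0497). The log2 fold change was above 0 for 9 of the 10, with a median of 1.13, and their sum was 113 to 199 CPM in males and 89.5 to 122 CPM in females; their part in C3ar1 was not tested. The counts behind the C3ar1 values were 45 to 129 in males and 33 to 50 in females. At Day 3 the sexes differed by 0.08 (SE 0.24). In males at Day 5 its level ran from 0.297 CPM (2 counts) to 4.35 CPM, and no change of C3ar1 from Day 0 passed.

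**Figure D4:**
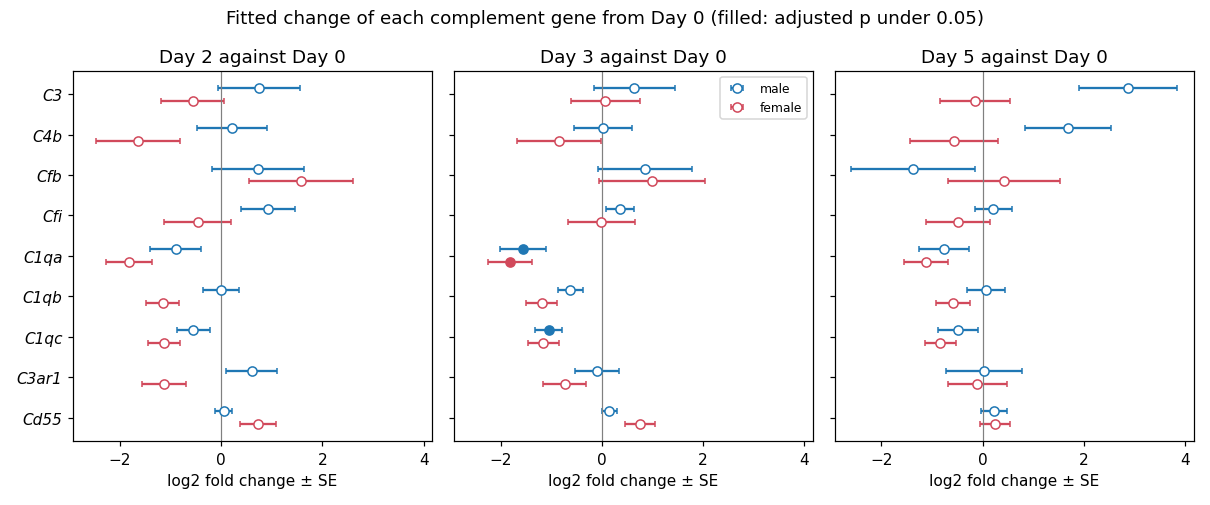
Log2 fold change of the 9 complement genes from Day 0 at Day 2, Day 3 and Day 5, with bars of 1 SE and 4 mice against 4, blue for males and red for females. The filled points, C1qa in both sexes and C1qc in males at Day 3, are the changes with an adjusted p under 0.05; the male C3 at Day 5 is 2.88 with an SE of 0.96.

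Taking the 9 members together by comparison, no member passed in males at Day 2 (3.16% of 16051 genes passed), in males at Day 5 (19.2% of 14969), in females at Day 2 (1.93% of 16541) or in females at Day 5 (0.258% of 16260) in edgeR. At an unadjusted p under 0.05 the counts were 0, 1, 4 and 2 of 9, beside 29%, 36.1%, 25.3% and 15.7% of all genes. DESeq2's Wald test gave 0, 1, 3 and 0 members, beside 18.3%, 28.1%, 12.9% and 4.5% of all genes. With limma voom and quality weights 4, 2, 6 and 1 members were called, beside 46.4%, 54.9%, 50.3% and 17.6%. DESeq2 called C3 higher in males at Day 5 (2.87, adjusted p = 0.0217) and the 3 C1q genes lower in females at Day 2. The median log2 fold change of the members was 0.22, 0.02 and 0.06 in males from Day 2 to Day 5 and −1.13, −0.74 and −0.49 in females, beside medians of 0.02 to 0.04 over all genes tested. Without the 3 atypical libraries the member medians were 0.26, 0.10 and −0.04 in males and 0.06, 0.12 and 0.25 in females, so that the female medians and the male Day 5 median turned. The comparisons of 1 sex with Day 0 share their 4 Day 0 libraries.

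From Day 2 to Day 3 no gene passed in edgeR in either sex (0% of 16232 and 16974 genes), and 1 member of 9 had an unadjusted p under 0.05 in each, beside 8.69% and 3.99% of all genes. DESeq2 and voom called 0 members there, beside at most 0.444% of all genes. The largest member values were −0.68 (SE 0.30) for C3ar1 in males and 0.80 (SE 0.37) for C4b in females. Between the sexes at Day 0 and Day 5 no member passed (0.449% of 16042 and 0.276% of 15237 genes), with 2 and 3 members at an unadjusted p under 0.05, beside 8.04% and 20.3% of all genes. DESeq2 called 0 and 1 members there, the 1 being Cfi, and 1 at Day 2, C3ar1, beside 2.71%, 6.92% and 5.12% of all genes. Voom called 4, 2 and 3 on these days, beside 25.1%, 29.8% and 19.3%. At Day 5, 3 members passed without the library labelled male mouse 1, beside 17% of 15562 genes, which were Cfi, C3 (1.95, adjusted p = 0.0254) and Cd55 (0.99, adjusted p = 0.0323). In the sex by day terms for Day 2, Day 3 and Day 5, 0%, 0.0114% and 0.243% of genes passed and no member, with 2, 0 and 1 at an unadjusted p under 0.05, beside 4.23%, 7.11% and 15.2% of all genes. DESeq2 called none of the 9 in these terms, beside 0.12%, 0.466% and 4.05% of all genes, and voom 4, 0 and 1, beside 10.6%, 12.1% and 32.6%.

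**Figure D5:**
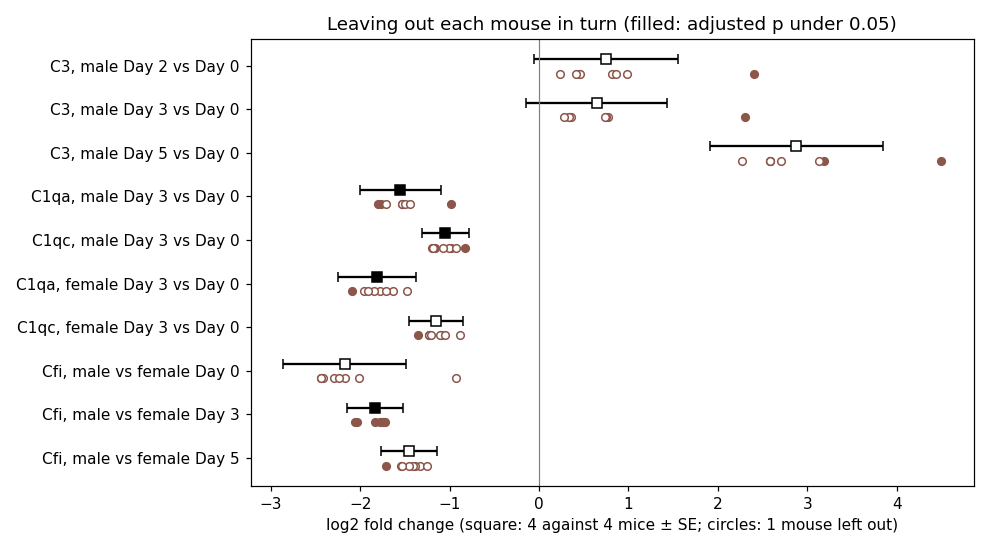
Log2 fold changes of C3, C1qa, C1qc and Cfi in 10 comparisons, with all 4 against 4 mice (squares, bars of 1 SE) and with each mouse left out in turn (circles), filled where the adjusted p was under 0.05. Cfi at Day 3 is filled throughout, from −2.06 to −1.72, and the male C3 circles at 2.41, 2.30 and 4.49 are the fits without Day 0 mouse 4.

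A list of 43 other complement genes was read beside the members. Of these, 2 (Cd55b and Fcnb) had 0 counts in every library, 32 were tested in at least 1 comparison and 27 in all. In FPKM, abundant genes of the list were Cfd (factor D, or adipsin, which cuts factor B and is made by fat cells), with a median of 326, Clu (clusterin) with 83.2, Serping1 (the C1 inhibitor) with 39.8 and Cd59a with 24.3. Vtn (vitronectin), made in liver, had a median of 0.293 FPKM and 148 FPKM in the highest library, a Day 0 female. Apart from Cd59b at Day 3, the genes named in the next paragraphs were chosen after their values were seen, because they passed.

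In males 0 of 29 tested genes of this list passed at Day 2, with 3.16% of all genes passing. At Day 3, 2 rose and 3 fell of 29, where 24.5% of all genes passed and 13.1% fell. Among them, Cd46 rose by 1.07, and Mbl1, Cfd and Cd59b fell by 1.13, 1.90 and 0.91. These 4 also passed without the atypical Day 0 mouse 3, and with 1 mouse left out in turn they passed in 2, 4, 4 and 3 of 8 fits. Cfd at Day 0 was highest in the mouse with the highest adipocyte markers, with 1139 CPM in mouse 4 against 203 to 408 CPM in the others, and 106 to 151 CPM at Day 3. At Day 5, 3 rose and 2 fell of 28, where 19.2% of all genes passed. C1ra by 1.46 and C1s1 by 1.59 were among those higher, and Mbl1 and C8g were lower. Mbl1 had 10, 0, 3 and 2 counts in the Day 5 males against 41 to 109 counts at Day 0, so no fold is given for it. C8g fell by 2.32, and by 1.67 without the atypical Day 0 mouse 3. C1ra and C1s1 encode the proteases that C1q carries. Without the atypical Day 0 mouse 3 neither passed, at 1.37 (adjusted p = 0.0733) and 1.53 (adjusted p = 0.0968), and each passed in 2 of 8 fits that left out 1 mouse, while Mbl1 passed in 8 and C8g in 5. Without the library labelled male Day 5 mouse 1 both passed, at 1.74 and 1.89. In Day 5 mouse 1, whose label is in doubt, C1ra and C1s1 had 16.05 and 19.9 CPM, the lowest of the group. The other 3, with the high mitochondrial shares, had 34.9 to 71.5 CPM of C1ra and 46.6 to 109 CPM of C1s1. Female Day 5 mouse 2, with 77.9% mitochondrial counts, had 45.5 and 52.9 CPM against 15.7 to 25.3 and 16.8 to 29.9 CPM in the other Day 5 females, and the part of this share was not tested.

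In females no gene of the list rose and 2 of 31 fell at Day 2, 2 of 32 fell at Day 3 and 0 of 31 passed at Day 5, beside 1.93%, 5.54% (4.28% lower) and 0.258% of all genes. At Day 2 and Day 3 these were Fcna, a ficolin of the lectin route made by macrophages, which fell by 2.74 and 2.20, and Cd59b, an inhibitor of the membrane attack complex, which fell by 1.83 and 1.94. The Day 0 females had 6.61, 11.8, 12.5 and 5.15 CPM of Cd59b and the Day 3 females 1.51, 3.21, 2.67 and 2.05 CPM. Fcna had 9.73 CPM in the Day 0 library with liver transcripts against 2.29 to 2.59 CPM in the other Day 0 females, and 0.740 to 1.21 CPM at Day 3. Without that library neither gene passed, at −1.92 and −1.41 for Fcna and −1.64 and −1.78 for Cd59b, with adjusted p of 0.124 to 0.137 in edgeR. Without both atypical female libraries Fcna passed at Day 2 (−1.93, adjusted p = 0.0470), and the other 3 values did not pass, at −1.37 for Fcna at Day 3 and −1.22 and −1.32 for Cd59b (adjusted p = 0.161, 0.113 and 0.163). With all mice, Cd59b was the only gene of the list that fell in both sexes on the same day, at Day 3. That overlap was lost without the atypical libraries, where Cd59b passed only in males (−0.81, adjusted p = 0.0256).

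Between the sexes at Day 3, 11 of 31 tested genes of the list passed, 4 higher and 7 lower in males, beside 21.3% of all genes. Masp1 and Masp2, proteases of the lectin route, were lower in males by −1.32 and −1.11 on the log2 scale, Cfd by −1.11 and Cd59a by −0.55. Among the 4 higher in males, C8g, Itgax and Cd46 differed by 0.75, 0.75 and 0.70, and Mbl2, C8a and C4bp were lower in males by −2.24, −0.97 and −2.5. Female Day 3 mouse 2 had hepatocyte markers at 413 CPM, against 56.9 to 81.7 CPM in the other 3; Mbl2 and C4bp, made in liver, averaged 1.14 and 0.884 CPM in these females. With 1 mouse left out in turn, C8g, Cfd and Cd59a passed in 8 of 8 fits, Masp2 and C4bp in 6, Cd46 in 4, C8a, Itgax and Mbl2 in 3 and Masp1 in 2. In 1 fit over all 8 groups, where 0.988% of all genes passed, none of these 10 did.

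Members aside, the genes whose log2 CPM was most like that of C3 over the 32 libraries were Itgb3 (r = 0.89), Lbp (0.88), Inf2 (0.88), Prrg3 (0.87) and Rbms2 (0.86), and 4 of the 5 were again among the nearest 5 without the library with liver transcripts. Without the 3 atypical libraries 2 of the 5, Itgb3 (0.91) and Lbp (0.89), were again among them. Those most like C1qa were Ccm2 (0.92), Ap2s1 (0.91), Rpl38-ps2 (0.91), Psmb10 (0.91) and Limd2 (0.91), and all 5 were again nearest without that library, while C1qc, a member, stood at 0.94 over the 32 libraries. Without the 3 atypical libraries 0 of these 5 were again among the nearest, which were then Il3ra, Unc93b1, Lrrc25, Cbr2 and Crlf2 at 0.82 to 0.84, below C1qb and C1qc. The libraries share days, sexes and depth, and these values are a description.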

How the data were processed

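The 32 libraries, 1 per mouse, were put in groups from their labels. A table of raw counts and a table of FPKM were deposited, both from 150-base paired-end reads; the authors made the FPKM from counts, gene length and an effective library size. The study's methods name GRCm38; the submitters' processing notes name GRCm39 (mm39), HTSeq and DESeq2. The coordinates of all 9 members and of 98.3% of 54495 shared genes equalled those of GENCODE M21 for GRCm38, which is used here. The aligner and strandedness are not given in the sources used here. No 2 libraries of 496 pairs held the same counts, and 0 sample columns were left unmapped.

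The main test was that of edgeR 4.0.16 under R 4.3.3 on the deposited counts (TMM, filterByExpr, robust quasi-likelihood test), each fit on the groups it compares, in 15 comparisons. FPKM were used only for levels between genes. SE was the log2 fold change over the square root of F. Log2 CPM used a prior count of 2. A count of 0 allows up to 3 counts, for counting error only. The script was tested on simulated counts. DESeq2 1.42.0 and limma 3.58.1 (voom) were alternatives, as were other filters, scalings and each mouse left out; leaving out the 3 atypical Day 0 libraries was added after seeing the data. No comparison had all 4 correlations of same-numbered mice over 0.1, so the numbers were not used as pairs. The correlations ranged from −0.42 to 0.48, and for the sexes at Day 0 they were 0.27, −0.07, 0.44 and 0.48.

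The members and lists were chosen with earlier results of these data known. All 9 members were tested in every comparison, and not every value is printed. Other complement genes were named by rule where they passed in the same direction in both sexes on a day. Markers were taken by list, with Alb, Adgre1, Csf1r, Cd68, Havcr1 and Lcn2 by name. The 5 genes most like C3 and C1qa were also named. The values of 1 gene of the list of other complement genes are not reported here.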

Additional observations from a re-analysis of the deposited data

Results flagged for a closer look

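Among 72 groups of 4 mice (9 genes in 8 groups), 9 held a mouse whose gap to the nearest of the others exceeded Dixon's 95% critical share of the group's range, where about 3.6 would by chance. C3 was high in male Day 0 mouse 4 (269 CPM, others 26.6 to 30.04), in female Day 2 mouse 1 (214 CPM, others 138 to 148), in male Day 3 mouse 1 (233 CPM, others 102 to 113) and in female Day 5 mouse 1 (403 CPM, others 147 to 165). C4b was high in female Day 0 mouse 2 (136 CPM, others 9.60 to 15.1), the library with liver transcripts, and in female Day 5 mouse 1 (59.1 CPM, others 20.1 to 20.8). Cfb was high in female Day 5 mouse 4 (8.74 CPM, others 2.26 to 2.77). Cfi was high in female Day 0 mouse 2 (47.1 CPM, others 6.58 to 7.59) and low in female Day 3 mouse 2 (8.46 CPM, others 19.1 to 20.8). No difference between the sexes in the change from Day 0 passed for a member.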

How the results depend on the processing

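Of 289 counts of members passing under another setting, 232 stayed within 1.5 times the count reported, and of 792 values of single members, over the members and comparisons that passed in at least 1 fit, 671 kept their direction and side of the threshold, 87 passed where they had not, 25 no longer passed and 9 turned their direction. With limma voom and quality weights, 4, 6 and 2 members passed in males at Day 2, Day 3 and Day 5, 6, 5 and 1 in females, 4, 3, 4 and 2 between the sexes from Day 0 to Day 5, and 4 and 1 in the sex by day terms of Day 2 and Day 5. Of all genes, voom called 46.4% to 57.2% in males, 17.6% to 50.3% in females, 19.3% to 43% between the sexes, and 10.6% and 32.6% in those terms. With DESeq2, 1 passed in males at Day 5, 3 and 3 in females at Day 2 and Day 3, and 1, 2 and 1 between the sexes at Day 2, Day 3 and Day 5, beside 28.1%, 12.9%, 21.2%, 5.12%, 25.9% and 6.92% of all genes in these 6 comparisons. Without a filter on low counts, 1 passed in males at Day 3, 3 and 2 in females at Day 2 and Day 3, and 1 between the sexes at Day 5, beside 8.62%, 3.41%, 3.23% and 1.29% of all genes. With at least 10 counts in every library, 2 and 3 passed in females at Day 2 and Day 3, beside 6.66% and 12.2%. In 1 fit over all 8 groups, 1 passed in males at Day 5, 3 and 3 in females at Day 2 and Day 3, 1 between the sexes at Day 0 and 0 at Day 3, beside 31.1%, 21.8%, 23.4%, 3.22% and 0.988% of all genes. In females at Day 3, 0 passed with DESeq2 size factors in edgeR, 0 without mitochondrial genes and 0 without the 3 atypical Day 0 libraries, beside 2.53%, 4.59% and 0% of all genes. With a log2 fold change over 1.5 as a second threshold, 1 passed in males at Day 3, beside 591 of 15908 genes. With the mouse number as a replicate block, 0 passed in males and 0 in females at Day 3, and 3 between the sexes at Day 3, beside 0.566%, 0% and 17.6% of all genes; the numbers do not mark shared animals, and a call lost there is not a weaker effect.

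Leaving out 1 mouse in turn gave 0 to 1 members in males at Day 2, 0 to 2 at Day 3 and 0 to 1 at Day 5; 0 to 5 in females at Day 2, 0 to 3 at Day 3 and 0 to 2 at Day 5; and 0 to 1, 1 to 3 and 0 to 3 between the sexes at Day 2, Day 3 and Day 5. The share of all genes passing in these fits ran from 0.079% to 14%, 4.18% to 38.6% and 5.38% to 26% in males, from 0.125% to 28.3%, 0% to 39.1% and 0.0483% to 12.6% in females, and from 0.567% to 3.35%, 11.1% to 34.6% and 0% to 17% between the sexes. C4b turned to lower in males at Day 2 without Day 0 mouse 1 (−0.10), Day 0 mouse 2 (−0.05) or Day 2 mouse 4 (−0.39), and at Day 3 without Day 0 mouse 1 (−0.29), Day 0 mouse 2 (−0.24) or Day 3 mouse 1 (−0.16). Over all mice left out in turn, C4b ranged from −0.39 to 0.95 in males at Day 2, from −0.29 to 0.75 at Day 3, and from −0.54 to 0.04 between the sexes at Day 3. Between the sexes C4b turned at Day 3 without female mouse 3 (0.0369), and C1qa (0.0764) and C1qb (0.12) turned at Day 0 without the 3 atypical libraries. Over all 135 pairs of member and comparison, 202 of 2452 values turned, in 58 pairs, among them Cfi in females on all 3 days (up to 0.88, 1.34 and 0.85), C3 in females at Day 2 (up to 0.37) and Cfb in females at Day 5 (down to −0.47). None of these values passed before or after, and their causes were not tested. Low counts limit the precision of C3ar1, at 2 to 129 counts, and of Cfb, at 0 to 463 counts; the Day 0 libraries with 0 counts of Cfb held 30740491 and 23647121 counts in all.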
